A study of Mus musculus with 3 samples.

Results

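The genes described here are serum response factor (Srf) and 8 genes of the actin cytoskeleton or the extracellular matrix that are known targets of SRF, of the coactivator YAP, or of both. They are Ctgf (Ccn2), Cyr61 (Ccn1), Tagln, Acta2, Vcl, Tpm1, Cnn1 and Flna. They were taken by name, 9 of the 25562 genes in the count tables, and all 9 were found. The set was proposed with exonic and intronic read counts of these same libraries known, so its counts and ratios are given as a description and not as a test.

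The RNA came from cultured mouse neurons of the medial ganglionic eminence (MGE), a part of the embryonic forebrain that produces many inhibitory interneurons of the cortex. The tissue was from embryonic day 14 of the C57Bl/6 background, and the neurons were kept for 10 days. All cultures, the 0 h control included, were silenced overnight from day 9 with tetrodotoxin (TTX), which blocks sodium channels, and AP-5, which blocks NMDA receptors. Extracellular KCl was then held at 55 mM, which depolarizes the membrane, for 1 h or 6 h, and the unstimulated culture is the 0 h control. Each of the 3 times has 1 library of ribosome-depleted total RNA, sequenced with its strand kept. The series asked which genes activity induces in inhibitory neurons.

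SRF binds a short DNA element, the CArG box, in the promoters of actin, adhesion and muscle genes. Its MRTF cofactors are held in the cytoplasm by monomeric actin and released when actin polymerizes, while its TCF cofactors (Elk proteins) are switched on by MAP kinase and serve immediate early genes such as Fos. YAP and its relative TAZ act through TEAD factors, are restrained by the LATS kinases of the Hippo pathway, and share targets such as Ctgf and Cyr61 with the actin-regulated branch of SRF. In neurons SRF is known for its part in the transcriptional response to activity.

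Promoter sequence was available from RefSeq (GRCm38.p6) for 7 of the 9 genes, all but Ctgf and Tagln. The 250 bases before the annotated start were searched on both strands for the CArG box and for GGAATG, the core of the TEAD element (CATTCC on the other strand). Only exact matches to CC, then 6 bases of A or T, then GG were counted as CArG boxes. Boxes with a mismatch were not searched for, so a gene without a match here may still hold one. The exact CArG box was found in 2 of the 7 genes, against 1.47% of 32851 mouse promoters of the same length. The promoter of Srf held 2 of them, 82 to 73 and 62 to 53 bases before the start, and 6 promoters in the table (0.0183%) held 2 or more. Vcl held 1, at 227 to 218 bases before the start. GGAATG was found in 5 of the 7 (Cyr61, Acta2, Vcl, Tpm1 and Flna), against 12.6% of all promoters. The 2 motifs overlapped in no gene, and a match describes the letters only. The promoters of Srf (chr17:46556163-46556412, minus strand), Vcl (chr14:20929148-20929397, plus strand) and Cyr61 (chr3:145649986-145650235, minus strand) are printed 5′ to 3′, because these are the genes with CArG boxes and the gene with the largest ratio at 1 h. Capitals mark CArG boxes and GGAATG or CATTCC.
Srf: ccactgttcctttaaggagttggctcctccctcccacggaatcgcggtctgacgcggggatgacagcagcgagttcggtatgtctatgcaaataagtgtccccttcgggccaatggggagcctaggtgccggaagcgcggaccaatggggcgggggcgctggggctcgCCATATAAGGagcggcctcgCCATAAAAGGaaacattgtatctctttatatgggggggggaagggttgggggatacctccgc
Vcl: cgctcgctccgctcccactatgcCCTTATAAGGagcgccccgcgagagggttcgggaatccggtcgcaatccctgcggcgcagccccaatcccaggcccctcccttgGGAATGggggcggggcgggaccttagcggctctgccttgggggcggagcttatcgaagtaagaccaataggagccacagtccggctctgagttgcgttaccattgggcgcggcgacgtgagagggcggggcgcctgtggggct
Cyr61: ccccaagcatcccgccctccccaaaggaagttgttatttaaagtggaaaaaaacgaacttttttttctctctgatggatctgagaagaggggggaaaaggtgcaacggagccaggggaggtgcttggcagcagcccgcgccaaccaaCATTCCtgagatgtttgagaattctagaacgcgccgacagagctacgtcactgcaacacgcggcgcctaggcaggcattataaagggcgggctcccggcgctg

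The libraries held 8549377 to 8996897 uniquely mapped reads, of which 2189394 to 2480579 lay in exons and 1789710 to 2123187 in introns on the sense strand. Levels are given as scaled RPM, that is exonic or intronic sense reads divided by the library's exonic total, itself adjusted by edgeR's TMM factors, and multiplied by 1000000. A limit of 3 reads, taken as the floor, equals 1.19 to 1.34 scaled RPM. With 1 library per time there is no replicate spread, so no test between times was possible. The 95% intervals given with ratios are exact and cover counting error only, and as repeated reads were kept and molecules were not tagged they are too narrow even for that. The words at least 2-fold higher, or lower, are used where the ratio reaches 2, or 0.5, its interval leaves out 1, and 1 of the 2 libraries compared holds 20 reads or more. In bulk RNA, fewer cells of a type and less RNA per cell cannot be told apart.

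The culture matched its label: all 15 matched MGE interneuron markers were measured, with a summed exonic level of 8070, 7846 and 9607 scaled RPM at 0, 1 and 6 h. Astrocyte and radial glia markers were also present, 11 of 12 measured, and summed to 2664, 2771 and 3259 scaled RPM. Of these 11, Vim alone was at least 2-fold higher at 6 h than at 0 h (672, 868 and 1491 reads), and the part of glial cells in the results was not tested. Endothelial markers summed to 3.57, 5.57 and 5.06 scaled RPM and meningeal fibroblast markers to 4.02, 5.57 and 2.95, with none of the 10 and none of the 9 measured. Markers of excitatory neurons summed to 98.2, 63.7 and 76.4 scaled RPM, those of dividing cells to 124, 129 and 119 (1 of 5 compared, Cdc2a with 27, 50 and 61 reads, was at least 2-fold higher at 6 h than at 0 h), and those of microglia to 0.446, 0.398 and 0.

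In outline, Srf and Cyr61 were higher at 1 h, Ctgf was higher at 1 h and much higher at 6 h, and Tagln was seen mainly at 6 h. The structural genes Vcl, Tpm1 and Flna stayed within 2-fold in exonic reads, and Acta2 and Cnn1 were barely detected. Of the 6 genes with enough exonic reads for 1 h against 0 h, 3 were at least 2-fold higher (Srf, Ctgf and Cyr61) and none was lower, where 1.58% of 10093 measured genes were higher and 1.43% lower. For 6 h against 0 h, 4 of 7 were at least 2-fold higher (the same 3 and Tagln) and none lower, where 4.92% of 10095 genes were higher and 5.42% lower. For 6 h against 1 h, Ctgf and Tagln were higher and Cyr61 was lower among 7 genes, with 4.17% of 10137 genes higher and 4.63% lower. Since the set was chosen on these counts, nothing is read from their distance to the background. Tagln passed the read minimum only through the 6 h library, and Ctgf passed it at 1 h against 0 h only through the 1 h library.

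**Figure D1:**
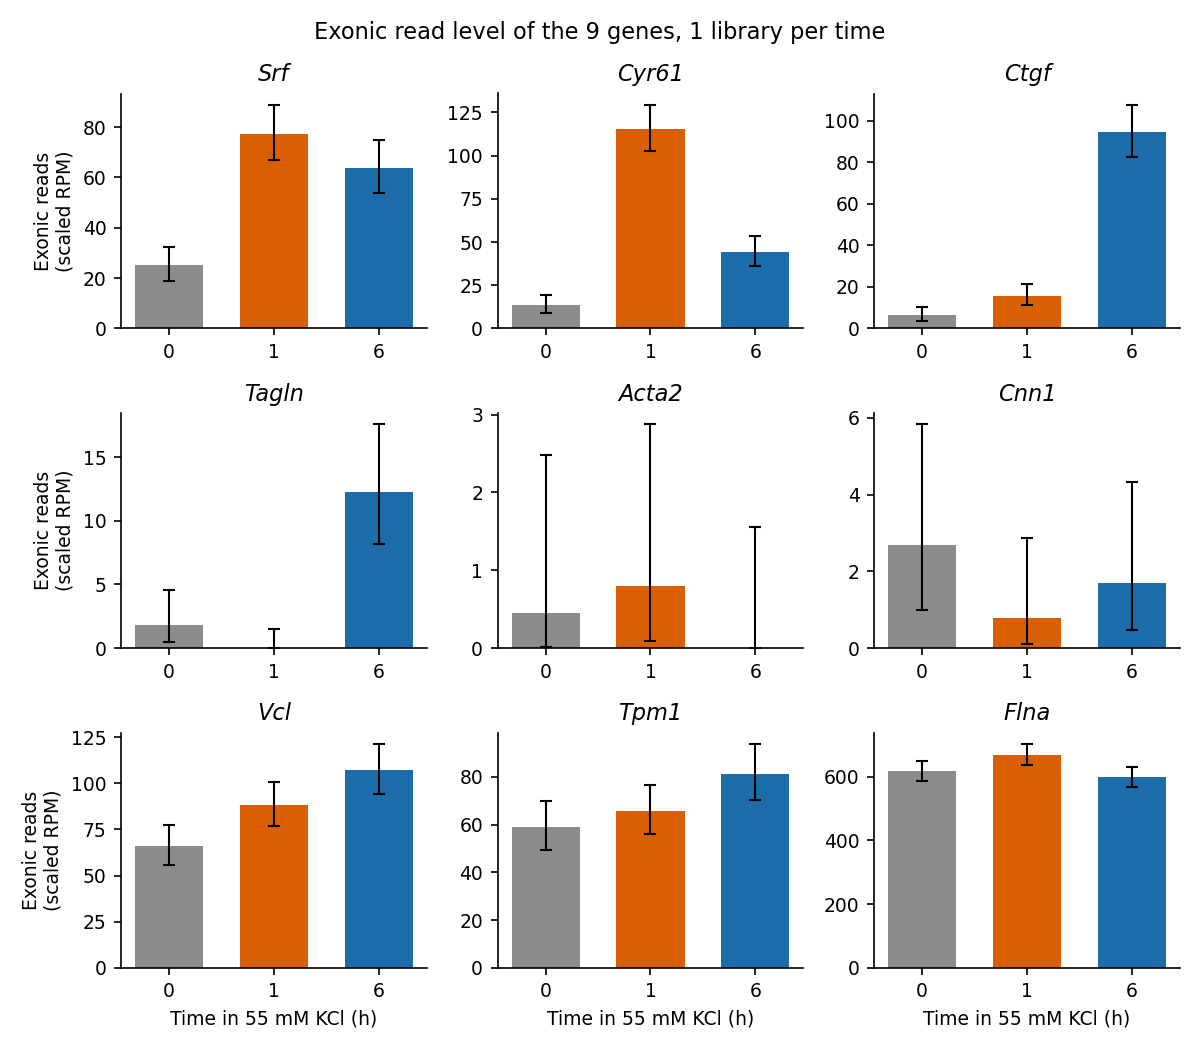
Exonic level of each gene (vertical axis, scaled RPM, from 0, with its own range for each gene) at 0, 1 and 6 h in 55 mM KCl. Bars are single libraries and whiskers are exact 95% Poisson counting intervals. Cyr61 stands highest at 1 h, Ctgf and Tagln stand highest at 6 h, and Flna differs little between times. Srf stands above its 0 h level at both 1 h and 6 h.

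Srf, the transcription factor itself (mm9 chr17:46683788-46693111, minus strand, 7 exons), had 56, 194 and 151 exonic reads at 0, 1 and 6 h, which is 25.0, 77.2 and 63.7 scaled RPM. It was 3.09-fold higher at 1 h than at 0 h (interval 2.28 to 4.24) and 2.55-fold higher at 6 h than at 0 h (interval 1.86 to 3.53). The 6 h and 1 h libraries did not differ beyond counting error, with a 6 h over 1 h ratio of 0.825 (interval 0.663 to 1.03). Both KCl libraries lay above the control, and the higher level was spread along the transcript. Each of the 7 exons had a higher scaled count at 1 h than at 0 h, and each was also higher at 6 h than at 0 h. The last exon, which holds the 3′ untranslated region, had 31, 94 and 79 reads.

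Intronic reads of Srf, which come from unspliced RNA, gave a like ratio. Its introns, 5231 bases in all, held 9, 36 and 19 reads, so the intronic ratio of 1 h over 0 h was 3.57 (interval 1.69 to 8.42), close to the exonic one. Scaled by total intronic reads instead, that ratio was 4.75. The introns passed the read minimum only through the 1 h library. Intron 4 alone had 2, 15 and 5 reads. At 6 h the intronic ratio to 0 h was 1.996 (interval 0.861 to 5.01), from 19 and 9 reads, which is under the read minimum.

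The genes whose pair of ratios (1 h over 0 h, 6 h over 0 h) lay nearest to that of Srf were Klf6, Gla, Snf1lk (Sik1), Arl5b and Leprot, by Euclidean distance on the log2 scale over the 3 libraries. They were taken from 8037 genes with at least 50 reads in a library, at distances of 0.11 to 0.24. Klf6, a zinc finger transcription factor, had 173, 629 and 493 reads.

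Cyr61 encodes a matricellular protein, a secreted matrix protein that signals through integrins. Cyr61 (mm9 chr3:145309940-145312945, minus strand, 5 exons) had 30, 290 and 105 exonic reads, or 13.4, 115 and 44.3 scaled RPM. It was 8.62-fold higher at 1 h than at 0 h (interval 5.91 to 13.0) and 3.31-fold higher at 6 h than at 0 h (interval 2.19 to 5.15). Its level at 6 h was 2.60-fold lower than at 1 h (interval 2.08 to 3.29). The order was thus 1 h, then 6 h, then 0 h, with each step beyond counting error. By its 1 h over 0 h ratio Cyr61 ranked 21st of 10093 genes, Srf 54th and Ctgf 82nd.

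All 5 exons of Cyr61 had more scaled reads at 1 h than at 0 h, and all 5 had fewer at 6 h than at 1 h. The introns total only 987 bases and held 0, 12 and 3 reads. Set against the floor of 3 reads at 0 h, the intronic level at 1 h was at least 3.57-fold higher, from a count under the read minimum. Intron 2 held 9 of the 12 reads. Nearest to Cyr61 in the pair of ratios were Nr4a2, Erf, Mylip, Fbxo33 and Dusp6, at log2 distances of 0.45 to 1.05. Nr4a2 encodes a nuclear receptor without a known ligand and had 7, 70 and 35 reads, and Dusp6, a phosphatase that acts on ERK, had 26, 272 and 188.

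Ctgf encodes a second matricellular protein of the same CCN family. Ctgf (mm9 chr10:24315313-24318486, plus strand, 5 exons) had 14, 39 and 224 exonic reads, or 6.25, 15.5 and 94.5 scaled RPM. It was 2.48-fold higher at 1 h than at 0 h (interval 1.32 to 4.95). At 6 h it was 15.1-fold higher than at 0 h (interval 8.83 to 28.1) and 6.09-fold higher than at 1 h (interval 4.32 to 8.79). On coding reads alone, an alternative chosen after the data were seen, Ctgf had 9, 16 and 91 reads. Its ratio to 0 h was then 1.59 at 1 h, under 2-fold and under the read minimum, and 9.56 at 6 h. The CCN pair therefore differed in order: Cyr61 stood highest at 1 h and Ctgf at 6 h.

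Each of the 5 exons of Ctgf had more reads at 6 h than at 0 h, and each but exon 2, with 2 reads in both libraries, had more at 6 h than at 1 h. The last exon had 6, 26 and 156 reads, and exon 3 had 1, 5 and 29. Ctgf introns span 839 bases and held 0, 0 and 3 reads. Nearest in the pair of ratios was Gpr3, a receptor that raises cyclic AMP, with 6, 18 and 96 reads at a log2 distance of 0.09. Mlf1, Rshl3 (Rsph4a), Mthfd2 and Sstr2 followed, at distances of 0.60 to 0.89. Other CCN genes were under the read minimum: Nov (Ccn3) had 5, 2 and 13 reads, Wisp1 (Ccn4) had 3, 2 and 5, and Wisp2 (Ccn5) had 0 in each library.

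**Figure D2:**
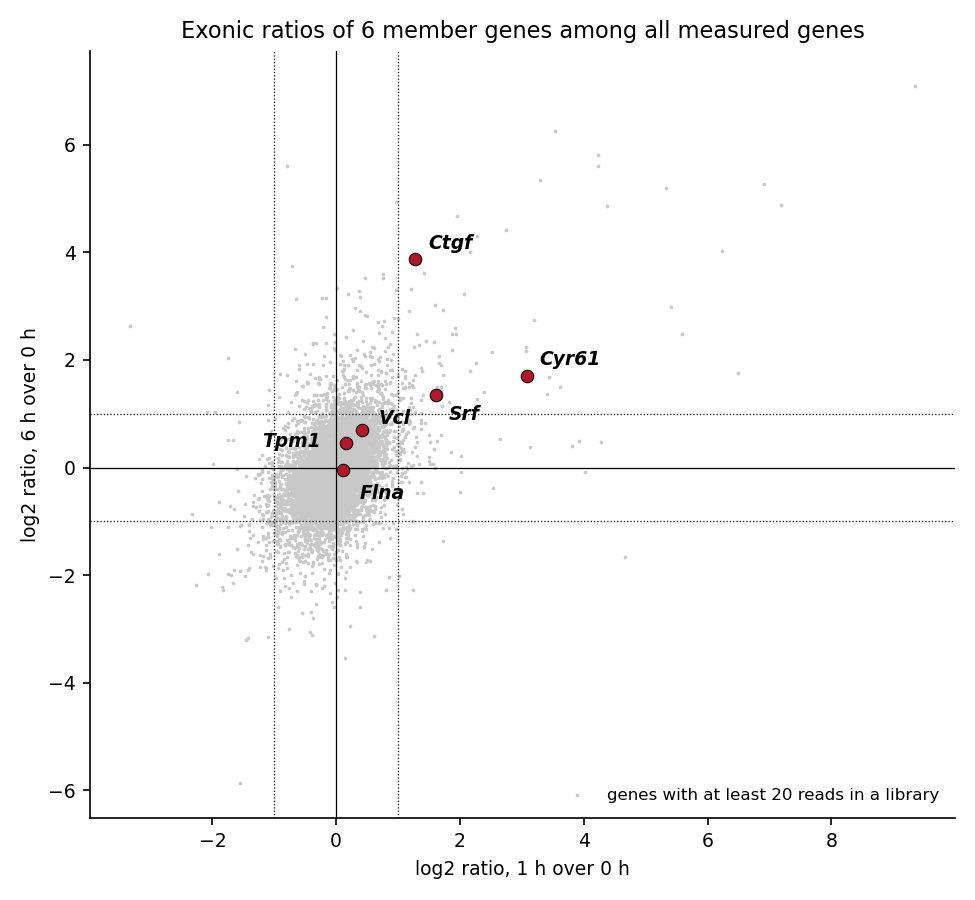
Each grey point is a gene with at least 20 exonic reads in a library, with its log2 ratio of 1 h over 0 h on the horizontal axis and of 6 h over 0 h on the vertical axis, computed with 0.5 reads added. Red points are the 6 genes measured in both comparisons, and dotted lines mark 2-fold. Srf, Ctgf and Cyr61 lie beyond 2-fold on both axes, while Vcl, Tpm1 and Flna lie within it.

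Tagln, Acta2 and Cnn1 encode SM22, smooth muscle actin and calponin, proteins of the smooth muscle contractile apparatus. Tagln (mm9 chr9:45737711-45743981, minus strand, 5 exons) had 4, 0 and 29 exonic reads, or 1.78, 0 and 12.2 scaled RPM. At 6 h it was 6.86-fold higher than at 0 h (interval 2.41 to 26.8) and, against the floor of 3 reads, at least 10.3-fold higher than at 1 h. The 4 reads at 0 h all lay in the last exon, whereas the 6 h reads covered exons 2 to 5 with 8, 3, 4 and 9 reads and included 5 reads across splice junctions. The gene overlaps Pcsk7 on the opposite strand. The counts given are of reads on the strand of Tagln, and reads on the opposite strand of its exons numbered 4, 3 and 3.

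Acta2 (mm9 chr19:34315581-34329826, minus strand, 9 exons) had 1, 2 and 0 exonic reads, at or under the floor in each library, and no ratio is given. Cnn1 (mm9 chr9:21903725-21914074, plus strand, 7 exons) had 6, 2 and 4 exonic reads, or 2.68, 0.796 and 1.69 scaled RPM, under the read minimum in every comparison. Neither differed detectably at this depth. Their relatives in the same families had more reads in some cases. Cnn2 (calponin 2) had 1, 6 and 40 reads and was 37.8-fold higher at 6 h than at 0 h, with a wide interval of 6.41 to 1531. Cnn3 (calponin 3) had 83, 124 and 232 reads and was 2.64-fold higher (interval 2.05 to 3.44). Tagln2 had 5, 8 and 19 reads, under the minimum, and Tagln3 had 72, 90 and 77.

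Mural cell markers, listed because smooth muscle cells and pericytes express these genes, summed to 71.4, 60.9 and 54.9 scaled RPM. Only 3 of the 12 were measured: Notch3 had 96, 103 and 70 reads, Cspg4 had 33, 24 and 29, and Pdgfrb had 20, 13 and 14. Mcam had 6, 5 and 10 reads, and 7 of the 12 were at or under the floor in all 3 libraries. Myh11 (smooth muscle myosin) had 0, 1 and 0 reads, Des (desmin) 0 in each, and Rgs5 2 in each. None of the 3 measured markers was called at 6 h, where Tagln had 29 reads, and the part of mural cells in its level was not tested.

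Vinculin, tropomyosin 1 and filamin A link or stabilize actin filaments: vinculin at integrin and cadherin adhesions, tropomyosin along the filament, and filamin as a crosslinker. Vcl (mm9 chr14:21748655-21852895, plus strand, 21 exons) had 148, 222 and 254 exonic reads, or 66.0, 88.3 and 107 scaled RPM. The ratio to 0 h was 1.34 at 1 h (interval 1.08 to 1.66) and 1.62 at 6 h (interval 1.32 to 2.001), under the 2-fold limit at both times. The 6 h over 1 h ratio was 1.21 (interval 1.01 to 1.46), so the exonic level stood in the order of time, by small steps.

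The introns of Vcl gave another picture. They span 99.0 kb and held 113, 288 and 130 reads, or 50.4, 115 and 54.9 scaled RPM. Intronic reads were 2.27-fold higher at 1 h than at 0 h (interval 1.82 to 2.85), and at 6 h they were 2.09-fold lower than at 1 h (interval 1.69 to 2.59). The 6 h over 0 h ratio was 1.09 (interval 0.839 to 1.41). The 1 h library thus stood alone, in a gene whose exonic level was highest at 6 h.

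The intronic ratio of Vcl at 1 h lay on the other side of 1 from that of most genes. Over 8143 genes with enough intronic reads, the median log2 ratio of 1 h over 0 h was -0.66, with 2.59% at least 2-fold higher and 27.2% lower. Among 2393 genes with 50 to 200 kb of intron the median was -0.76, 25 genes (1.04%) were at least 2-fold higher, and Vcl lay at percentile 99.2. Srf was the other gene of the set at least 2-fold higher in introns at 1 h, of 4 with enough intronic reads. For 6 h against 0 h none of 3 was called, with 3.08% of 8236 genes higher and 10.5% lower. For 6 h against 1 h only Vcl was called, as lower, of 4 genes, where 15.5% of 7734 genes were higher and 2.65% lower and the median log2 ratio was 0.40.

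Set against its own exonic reads, which needs no scaling between libraries, Vcl had 0.764, 1.30 and 0.512 intronic reads per exonic read at 0, 1 and 6 h. The intron-to-exon ratio at 1 h was 1.70 times that at 0 h (interval 1.24 to 2.32). Over 7363 genes the median log2 of this quotient was -0.58, and Vcl lay at percentile 96.6. Flna lay at percentile 88.4 and Srf at 86.8, with intervals that held 1, and Tpm1 lay at 52.8. At 6 h the intron-to-exon ratio was 0.395 times that at 1 h (interval 0.297 to 0.524).

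The intronic reads of Vcl were spread over the gene. Of its 20 introns, 18 had more scaled reads at 1 h than at 0 h, the other two having none in any library, and 16 had more at 1 h than at 6 h. Of the 9 introns with at least 10 reads in a library, 8 were highest at 1 h. The exception was intron 14, with 2, 10 and 10 reads. Intron 1, of 37849 bases, had 28, 57 and 32 reads, and intron 2 had 6, 26 and 11. Near the 3′ end, intron 18 (4884 bases) had 27, 61 and 25 reads. GENCODE vM21 places 1 exon of another Vcl transcript, 135 bases long, inside intron 18 and none inside the other introns.

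**Figure D3:**
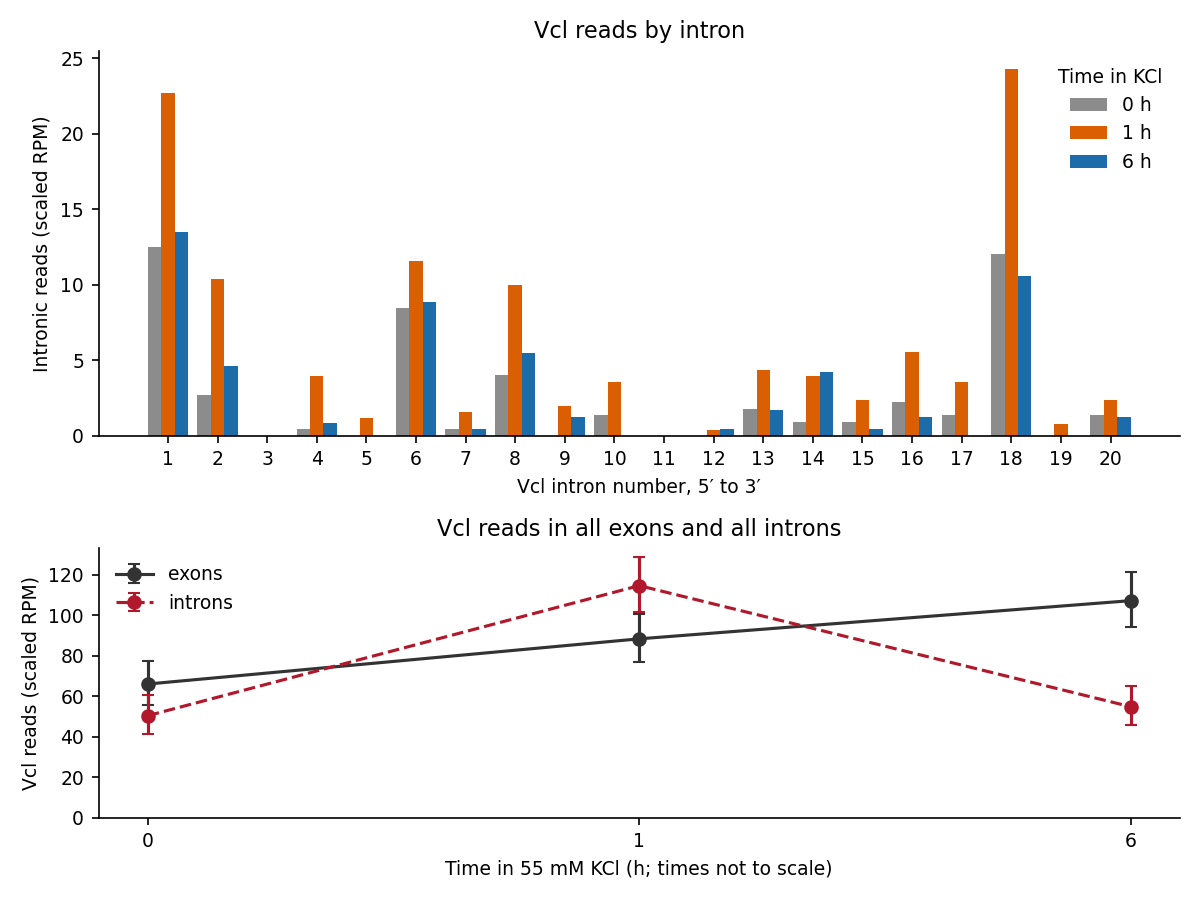
Upper panel: sense reads in each of the 20 Vcl introns (horizontal axis, 5′ to 3′; vertical axis, scaled RPM), 1 bar per library. Lower panel: all exonic and all intronic Vcl reads (scaled RPM) by time in KCl, with 95% Poisson counting intervals. The 1 h bars stand highest in most introns, and the intronic line peaks at 1 h while the exonic line is highest at 6 h.

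Tpm1 (mm9 chr9:66870400-66897020, minus strand, counted on a model of 9 exons) had 132, 165 and 193 exonic reads, or 58.9, 65.7 and 81.4 scaled RPM. Its ratio to 0 h was 1.11 at 1 h and 1.38 at 6 h (interval 1.10 to 1.74). Reads did not cover the model evenly. Exon 1 had 0 reads in every library, and exon 9 had 74, 121 and 129. On coding reads alone the 1 h over 0 h ratio was 0.878, on the other side of 1.

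Tpm1 had more intronic than exonic reads, 255, 220 and 282 at the 3 times. Intron 8, of 7587 bases, held 188, 172 and 207 of them, that is 73.7%, 78.2% and 73.4%. Intron 2, of 11657 bases, held 49, 35 and 58. GENCODE vM21 lists 21 transcripts of Tpm1 and puts 8 exons of other transcripts, 1413 bases in all, inside intron 8, and 7 inside intron 2. Intronic reads of Tpm1 can therefore come from exons of isoforms that the counted model lacks, and how many do was not tested. The intronic ratio of 1 h over 0 h was 0.769 (interval 0.640 to 0.925). It lay at percentile 67.1 of all genes, whose median log2 ratio was -0.66, and was 1.02 when scaled by total intronic reads. The intron-to-exon quotient of 0.691 (interval 0.510 to 0.933) lay at percentile 52.8 of all genes. Among the other tropomyosins, Tpm4 had 18, 28 and 82 reads and was 4.31-fold higher at 6 h than at 0 h (interval 2.56 to 7.63), Tpm3 had 20, 18 and 20, and Tpm2 had 0, 1 and 2.

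Flna (mm9 chrX:71468800-71491873, minus strand, 46 exons) had 1384, 1683 and 1417 exonic reads, or 618, 670 and 598 scaled RPM. The ratio was 1.08 for 1 h over 0 h and 0.968 for 6 h over 0 h. With this many reads, differences of 2-fold would have been visible at counting error, and none was seen. Its introns held 109, 155 and 92 reads, with a 1 h over 0 h ratio of 1.27 (interval 0.986 to 1.64) and a 6 h over 1 h ratio of 0.629 (interval 0.481 to 0.820). Among all genes with enough intronic reads, these ratios lay at percentiles 91.7 and 5.50. Intron 41, only 526 bases long, held 48, 63 and 24 of the Flna intronic reads, and GENCODE vM21 puts a 63-base exon of another transcript inside it.

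**Figure D4:**
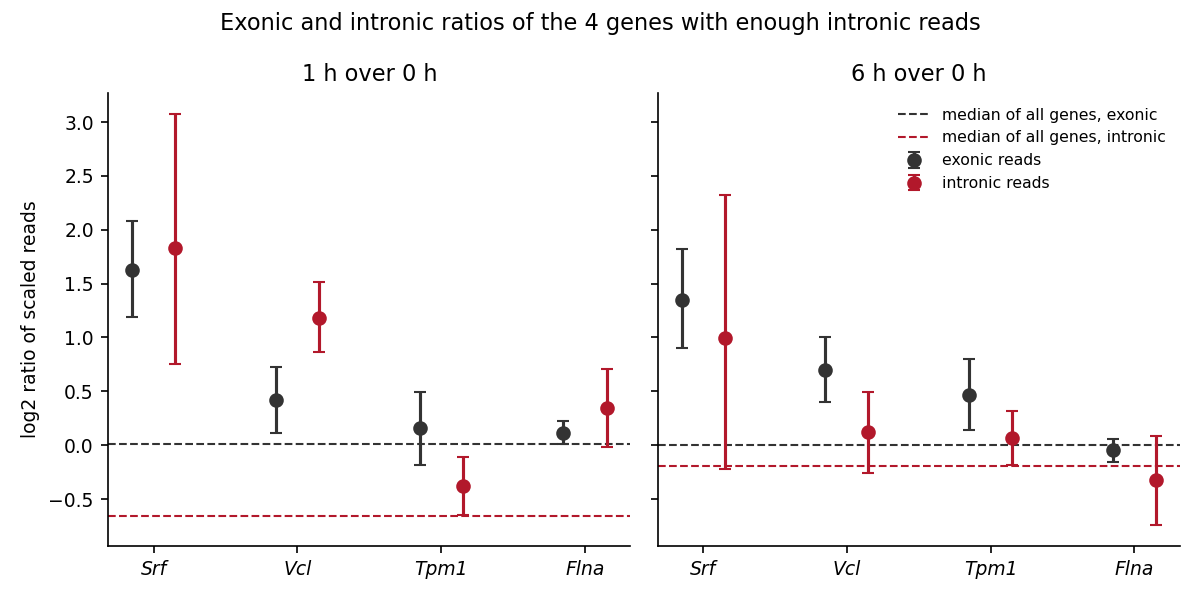
Log2 ratios of scaled exonic (dark) and intronic (red) reads to 0 h for the 4 genes with enough intronic reads at 1 h, at 1 h (left) and at 6 h (right), with exact 95% counting intervals; dashed lines are the medians of all measured genes. Vcl at 1 h has an intronic ratio above its exonic one, and Tpm1 an intronic ratio below it.

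Compared per kilobase of exon, the level order changed with time. At 0 h it was Flna (74.0 scaled RPM per kb), Tpm1 (34.6), Vcl (12.6), Cyr61 (6.63), Srf (6.11), Ctgf (2.68), Tagln (1.25), Cnn1 (1.13) and Acta2 (0.251). Cyr61 and Srf, and each neighbouring pair from Ctgf down to Acta2, did not differ beyond counting error. At 1 h Cyr61 was second, at 57.2 scaled RPM per kb, behind Flna at 80.2 and ahead of Tpm1 at 38.6. Srf (18.9) and Vcl (16.9) could not be separated, and Ctgf followed at 6.65. At 6 h Ctgf, at 40.5, was not separable from Tpm1 at 47.9, nor Cyr61 at 21.9 from Vcl at 20.5, while Srf stood at 15.6 and Tagln at 8.58. Flna led at every time, ahead of its neighbour beyond counting error.

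Other genes of these pathways were taken from lists written with earlier results of these data known, and the lists leave out the 9 genes above. Among SRF and TCF immediate early targets, 11 of 12 compared were at least 2-fold higher at 1 h than at 0 h, and 4 of 7 at 6 h. Over all genes the shares were 1.58% and 4.92%. For the listed genes none was lower at either time. Their median log2 ratio was 4.84 at 1 h and 2.48 at 6 h, against 0.01 and 0.00 over all genes. Of the 12, all but Fos, Egr1, Mcl1 and Arc passed the read minimum at 1 h against 0 h only through the 1 h library. Egr2, Egr3, Egr4, Ier2 and Maff were under it for 6 h against 0 h. The counts and medians at 1 h and 6 h therefore cover different genes, and those at 6 h leave out genes with few reads by then. Among the listed genes, Fos had 21, 2901 and 877 reads, and Fosb 3, 573 and 109. Nr4a1 had 0, 367 and 72 reads, at least 109-fold higher at 1 h than at 0 h against the floor. Egr2 had 3, 352 and 12 reads and Junb 13, 726 and 79. These genes stood highest at 1 h, as Cyr61 did, whereas the 1 h and 6 h levels of Srf did not differ beyond counting error.

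Among SRF and MRTF cytoskeletal targets, 18 of 34 were measured. Only Pdlim7, which encodes a PDZ and LIM domain protein of actin filaments, was at least 2-fold higher at 1 h, 1 of 16 compared, with 20, 54 and 47 reads and a ratio of 2.41 (interval 1.42 to 4.25). At 6 h the count was 4 of 18 higher (Pdlim7, Cnn2, Tpm4 and Cnn3) and none lower. Of the genes called at 6 h, Cnn2 and Tpm4 passed the read minimum only through the 6 h library. Over all genes the shares higher were 1.58% at 1 h and 4.92% at 6 h. The list's median log2 ratio was -0.02 at 1 h and 0.71 at 6 h. Cnn2 and Fhl2 were not compared at 1 h, so these medians cover different genes. Actb, the list's most abundant gene, had 3448, 4481 and 4129 reads and a ratio of 1.16 at 1 h and 1.13 at 6 h. Reads matching several places were dropped, so near-identical copies such as Actg1, with 0, 0 and 1 reads, are uncertain.

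Among YAP and TEAD targets other than Ctgf and Cyr61, none of 11 was at least 2-fold higher at 1 h. That is near the share over all genes, 1.58%. The list's median log2 ratio at 1 h was -0.14. At 6 h 4 of 14 were higher and none lower, beside 4.92% and 5.42% of all genes, with a median of 0.60. Of the genes called, Fer1l3, Ptpn14 and Ccdc80 passed the read minimum only through the 6 h library. They were not compared at 1 h, so the medians at 1 h and 6 h cover different genes. Igfbp3, which encodes a secreted binding protein of insulin-like growth factors, had 90, 118 and 407 reads and was 4.28-fold higher at 6 h (interval 3.40 to 5.44). Fer1l3 (Myof, myoferlin) had 2, 2 and 23 reads and a ratio of 10.9 (interval 2.69 to 95.2). Ptpn14 had 16, 13 and 41 reads and Ccdc80 had 9, 8 and 25. Rbms3, the most abundant, had 178, 257 and 275.

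Among the cofactors of SRF, Mkl2 (Mrtfb), an MRTF, had 83, 39 and 98 reads and was lower at 1 h than at 0 h, at a ratio of 0.419 (interval 0.279 to 0.620). Elk3, a TCF, had 10, 11 and 26 reads and a 6 h over 0 h ratio of 2.46 (interval 1.15 to 5.71). The other MRTF, Mkl1, had 126, 117 and 142 reads and a 1 h over 0 h ratio of 0.828 (interval 0.638 to 1.07). The TCF genes Elk1, with 143, 151 and 120 reads, and Elk4, with 21, 18 and 16, were not called at either time. A930041I02Rik (Scai), a cosuppressor of the MRTFs, had 1132, 962 and 800 reads. Of 15 YAP cofactors and Hippo kinase genes none passed 2-fold at 1 h, and 1 did at 6 h, Mobkl1a (Mob1b), a LATS activator, with 105, 113 and 231 reads. These counts were near the shares of all genes higher, 1.58% at 1 h and 4.92% at 6 h. The list's medians were -0.26 and 0.38, and Lats1, the most abundant, had 243, 292 and 334 reads.

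**Figure D5:**
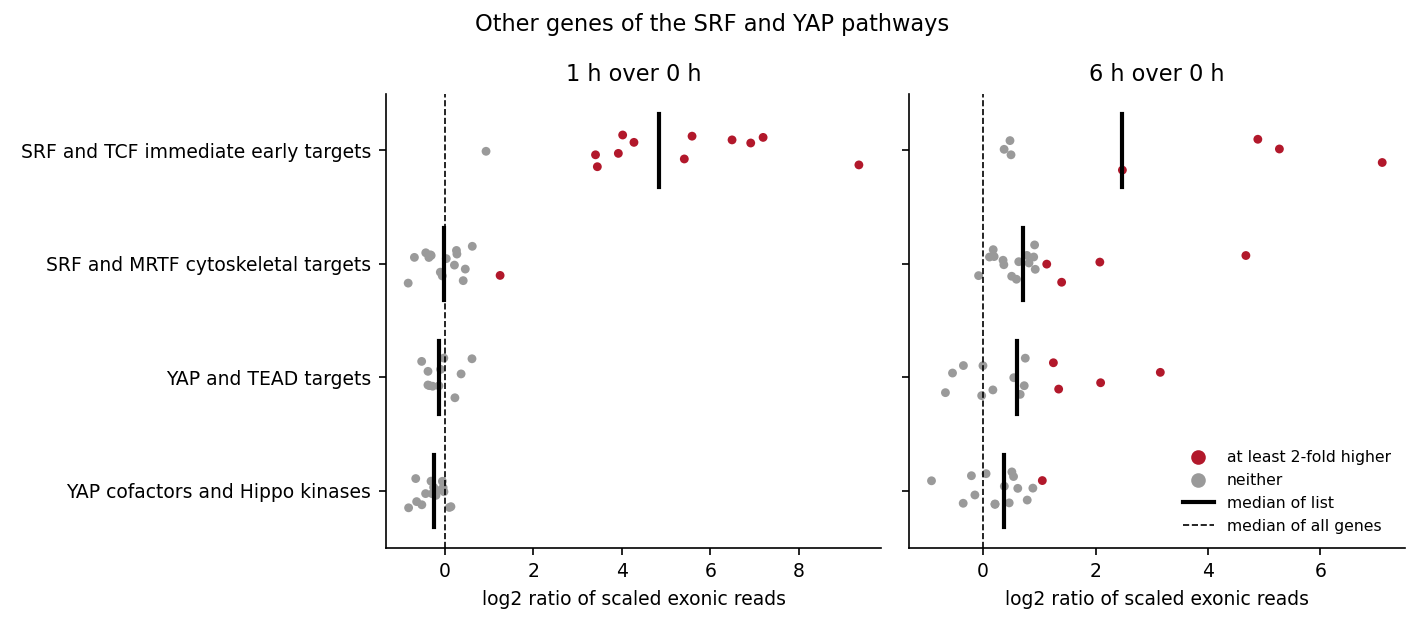
Log2 ratio of scaled exonic reads (horizontal axis) for each compared gene of 4 lists, at 1 h over 0 h (left) and at 6 h over 0 h (right). Red points are at least 2-fold higher, no gene shown is 2-fold lower, black bars are list medians and the dashed line is the median of all genes. Immediate early targets lie far to the right at 1 h, and the cytoskeletal and YAP lists have medians near 0 at 1 h and above 0 at 6 h. Genes under the read minimum are left out of each panel, so the panels do not hold the same genes.

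Of the paralogues of the 9 genes, none of 6 compared was at least 2-fold higher at 1 h, and 3 of 7 were at 6 h, beside 1.58% and 4.92% of all genes. Those 3, Cnn2, Tpm4 and Cnn3, are the same genes as in the cytoskeletal list and are counted in both. For 6 h against 0 h, Cnn2 and Tpm4 passed the read minimum only through the 6 h library. Cnn2 was not compared at 1 h, so the 2 counts cover different genes.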

How the data were processed

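RNA was measured in 3 libraries, 1 per time. Per the labels, total RNA was depleted of ribosomal RNA, fragmented, ligated directionally and sequenced on a SOLiD instrument. Per the deposited counting logs, reads of 35 bases with unique matches and at most 3 mismatches to mm9 or to a splice library were counted on RefSeq models, with repeated reads kept. For the aligner, no name was found in these sources. Counts were deposited as raw reads per gene, split by strand and by exon, intron and flanking region. The authors added a deposited coverage signal per gene scaled to 10000000 mapped reads, used only as an alternative. Reads per exon or intron were taken from the deposited per-feature strings.

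Exonic sense counts were scaled with TMM factors (edgeR 4.0.16, R 4.3.3), and the same factors were applied to introns. For each pair of times the ratio of scaled counts was computed with an exact Clopper-Pearson 95% interval (scipy 1.17.1, Python 3.11.15). Ratios against a library at 0 were bounded with a floor of 3 reads, and log2 values used a pseudocount of 0.5 reads. Scaling by total reads, by mapped reads or by DESeq2 1.42.0 size factors, other read minimums and 1.5-fold were tried as alternatives. The procedure was tested on simulated counts that held counting error only. Spread between libraries and repeated reads were not simulated, so that test does not cover them. Depth sets the precision: the exonic total was 2189394, 2457167 and 2480579 reads, and mapped reads numbered 2.45, 2.60 and 2.33 per distinct position at 0, 1 and 6 h.

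Members, gene lists and markers were chosen with earlier results of these data known. The text names every member, the most abundant gene of each pathway list reported, and up to 4 called genes per direction and comparison against 0 h with the largest change. For Srf, Ctgf and Cyr61 it names the 5 genes nearest in the pair of log2 ratios. Other genes, such as CCN and transgelin relatives, Mkl1, Elk1, Elk4 and markers, were named after their values were seen. Of the listed symbols, 184 matched by symbol, 6 by gene ID and 2 not at all. Promoters came from RefSeq (GRCm38.p6) and alternative exons from GENCODE vM21. Intron numbers and lengths of the transcripts matched there were the same as in the count files, and no coordinates were converted. Counts for 1 list of signalling genes and values of some related genes are not reported here.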

Additional observations from a re-analysis of the deposited data

How the results depend on the processing

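No paired analysis was possible because each time has 1 library. The 3 members called at 1 h, 4 at 6 h and 3 for 6 h against 1 h on exonic reads kept their calls under total exonic reads, DESeq2 size factors, mapped reads and no read minimum. A minimum of 50 reads left 2, 3 and 2, without Ctgf at 1 h and without Tagln, and 1.5-fold added Vcl at 6 h. On intronic reads, 1 member was called for 6 h against 1 h. This became 2 with total intronic reads as the scale (Srf and Vcl) and 2 with no read minimum (Cyr61 and Vcl). Scaled by total intronic reads, the 1 h over 0 h ratio was 4.75 for Srf introns, 3.02 for Vcl introns, 1.02 for Tpm1 introns and 1.69 for Flna introns. Over all genes, exonic calls of 303, 1044 and 892 became 915, 2506 and 2104 at 1.5-fold, and 133, 587 and 523 with a minimum of 50 reads. Calls at 1 h rose to 450 with no minimum. Scaling by mapped reads moved the median log2 ratio of all genes by 0.24 at 1 h and 0.15 at 6 h, and gave Flna ratios of 1.28 and 1.07. Depth limits Tagln, Acta2, Cnn1 and the introns of Ctgf and Cyr61, which rest on few reads.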

Other observations

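Several genes of the same lists had their lowest count at 1 h and stood at least 2-fold higher at 6 h than at 1 h. Wwtr1, which encodes TAZ, had 92, 66 and 168 reads at the 3 times in order, and its level was 2.70-fold higher at 6 h than at 1 h (interval 2.02 to 3.64). Its DNA-binding partner Tead1 had 51, 36 and 83 reads and was 2.44-fold higher (interval 1.63 to 3.72). Myh9, nonmuscle myosin heavy chain, had 67, 42 and 122 reads, and Actn1, an actin crosslinker of adhesions, had 105, 87 and 210. Both were higher at 6 h than at 1 h, by 3.08-fold (interval 2.15 to 4.48) and 2.56-fold (interval 1.98 to 3.33). Amotl2, a YAP target and YAP inhibitor, went the other way, with 105, 180 and 76 reads and a 6 h over 1 h ratio of 0.448 (interval 0.338 to 0.589). These genes were chosen after their values were seen, from lists in which 3 of 15 YAP cofactor and Hippo genes, 5 of 18 cytoskeletal and 6 of 14 YAP target genes were higher for 6 h against 1 h, beside 4.17% of all genes. Several of the genes so counted, such as Fer1l3, Ptpn14, Ccdc80 and Cnn2, passed the read minimum there only through the 6 h library.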
